A study of Homo sapiens with 29 samples.

Results

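The nuclear genes of oxidative phosphorylation were followed across 9 lists of chromatin immunoprecipitation (ChIP-seq) peaks. A gene was a member when it was an autosomal protein-coding gene whose symbol begins with NDUFA, NDUFB, NDUFC, NDUFS, NDUFV (without the NDUFAF assembly factors), UQCR, COX4, COX5, COX6, COX7, COX8 or ATP5, or was SDHA, SDHB, SDHC, SDHD, CYC1 or CYCS. The rule found 89 of 18884 autosomal coding genes, with 36 in complex I, 4 in complex II, 10 in complex III, 1 for cytochrome c, 18 in complex IV and 20 in complex V. Among them are 78 general subunit genes, 7 isoforms of complex IV subunits known from particular tissues or from stress, 2 near-identical copies of other subunit genes and 2 read-through genes. The read-through genes NDUFC2-KCTD14 and ATP5MF-PTCD1 share their starts, and hence their peaks, with NDUFC2 and ATP5MF, so the 89 members stand for 87 sets of starts. Subunit genes on the X chromosome and in mitochondrial DNA lie outside the rule and were not analysed here.

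Oxidative phosphorylation takes electrons from NADH at complex I and from succinate at complex II, passes them through ubiquinone, complex III and cytochrome c, and delivers them to oxygen at complex IV. Complexes I, III and IV pump protons across the inner mitochondrial membrane, and complex V, the ATP synthase, lets them return and makes ATP. Most subunits are encoded in the nucleus, so many separate promoters have to be active together, and the liver is a tissue rich in mitochondria. YY1, NRF1 and the ETS factor GABPA are known to bind promoters of these genes in other cells.

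The study mapped the INO80 chromatin remodelling complex in HepG2 and Huh7, 2 human liver cancer cell lines. INO80 is the ATPase that moves nucleosomes, MCRS1 is another subunit, RUVBL1 and RUVBL2 are ATPases that other chromatin complexes also contain, and YY1 is a DNA-binding factor that associates with the complex. In HepG2, 3 libraries were made for INO80 and 2 each for MCRS1, RUVBL1 and RUVBL2, while the YY1 list was made from public ENCODE reads. In Huh7, 2 libraries each were made for INO80, MCRS1, RUVBL2 and YY1. The cells of these groups were fixed with formaldehyde, and the labels give no treatment for them. Each line is a tumour line grown in culture, and the 3 INO80 libraries of HepG2 were made with 2 lots of the antibody. For RUVBL1 the label pairs a vendor with a catalogue number in the format of another supplier, so the antibody behind that list is uncertain. Another 8 libraries, of HepG2 cells given the EZH2 inhibitor EPZ-6438 (1.0 µM, 120 h) or DMSO, were not used.

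Each factor has 1 peak list per line. A list gives positions and no height, so a gene is only called occupied or not, with no replicate error and with unknown read depth. A gene counted as occupied when a peak had a base within 1 kb of the start of any of its basic protein-coding transcripts. The lists differ in length, from 39293 peaks for YY1 in HepG2 to 3322 for RUVBL2 in Huh7, and each HepG2 list is longer than the Huh7 list of the same factor. Shares of members are therefore read beside the share of all 18884 coding genes in the same list, and the lines cannot be told apart from the length of their lists. Intervals on shares are 95% Wilson intervals, which cover only the number of genes. Peak lists hold no expression values, so the labels of the lines were not checked against liver markers.

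INO80, MCRS1 and YY1 occupied nearly all of these genes in HepG2. INO80 was found at 80 of the 89 members (89.9%, interval 81.9 to 94.6) and at 65.7% of all coding genes. MCRS1 was found at 79 members (88.8%, against 60.1%) and YY1 at 80 (89.9%, against 63.8%). The ATPases shared with other complexes were seen less widely, with RUVBL2 at 53 members (59.6%, interval 49.2 to 69.1, against 40.9%) and RUVBL1 at 35 (39.3%, interval 29.8 to 49.7, against 17.5%). The members were chosen with earlier results of these data known, so these shares were not tested against each other. In all 5 HepG2 lists the share of members lay above that of all coding genes. For INO80 this order turned round among the widest peaks: when each list was held to its 3322 widest, 8 members (8.99%) and 16.3% of all coding genes had an INO80 peak in HepG2. MCRS1 under that limit was at 15 members (16.9%) and 16% of all coding genes.

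In Huh7, YY1 occupied 75 members (84.3%, interval 75.3 to 90.4, against 53.1% of all coding genes) and INO80 70 (78.7%, interval 69.0 to 85.9, against 49.5%). MCRS1 was found at 45 members (50.6%, interval 40.4 to 60.7, against 22.7%). RUVBL2 was found at 17 (19.1%, interval 12.3 to 28.5), and the 13.2% of all coding genes lies within that interval. Over the wider 50% of each list RUVBL1 in HepG2 was at 19 members (21.3%, against 10.0% of all coding genes). MCRS1 in Huh7 was then at 27 (30.3%, against 12.9%). RUVBL2 in Huh7 was at 8 (8.99%, near the 7.09% of all coding genes). The plot of shares by list sets the main values side by side.

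**Figure D1:**
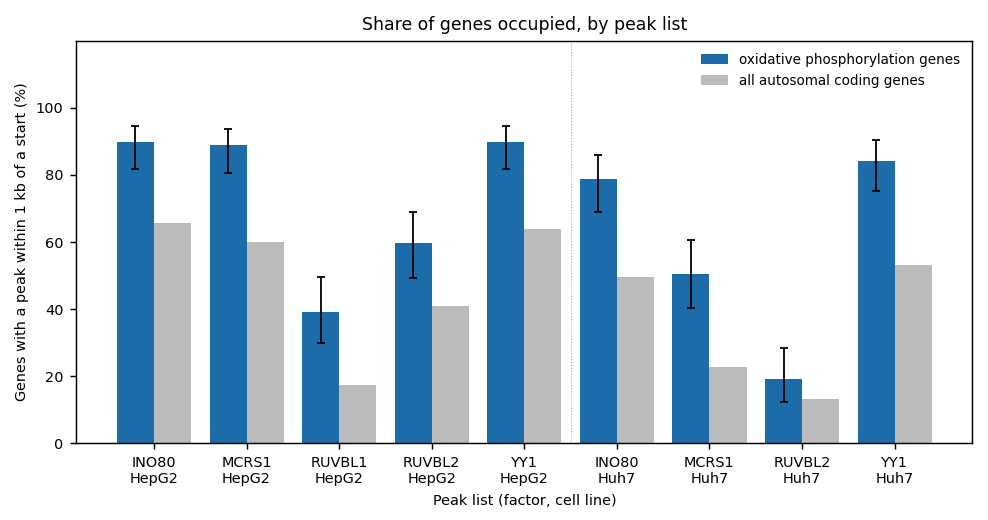
Share of genes with a peak within 1 kb of a start (y axis, percent) in each of the 9 peak lists (x axis: factor and line), for the 89 oxidative phosphorylation genes (blue, with 95% Wilson intervals) and all 18884 autosomal coding genes (grey). The blue bar is the taller in every list, and no difference was tested. The interval of the RUVBL2 bar of Huh7 takes in the grey bar.

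The factors met at the same genes. INO80 and YY1 were both present at 79 members in HepG2 (88.8%, against 58.5% of all coding genes) and at 67 in Huh7 (75.3%, against 42.0%). Among the 80 members with INO80 in HepG2, 98.8% had MCRS1 (against 86.7% of all coding genes with INO80), 98.8% YY1 (against 89.0%), 66.2% RUVBL2 (against 61.5%) and 43.8% RUVBL1 (against 26.4%). Among the 70 with INO80 in Huh7, 95.7% had YY1 (against 84.8% of all coding genes with INO80), 61.4% MCRS1 (against 43.2%) and 21.4% RUVBL2 (against 25.1%). RUVBL2 in Huh7, at 15 of these 70, was the partner whose share lay below that of all coding genes. That difference was small and was not tested. All 5 factors occupied 28 members in HepG2 (31.5%, against 15.1%), and all 4 occupied 12 in Huh7 (13.5%, interval 7.88 to 22.1, against 9.46%).

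Counted over all 9 lists, 22 members were in 8 lists (24.7%, against 8.16% of all coding genes) and 16 in 7 (18.0%, against 10.3%). Another 18 were in 6 (20.2%, against 13.2%) and 12 in 5 (13.5%, against 11.1%). The list that most often was missing from the 22 in 8 lists was RUVBL2 in Huh7, absent at 14 of them. It is the shortest list and held 13.2% of all coding genes. The 6 members in all 9 lists (6.74%, near the 5.52% of all coding genes) were NDUFA10 and NDUFA13 of the membrane arm of complex I, NDUFS7 of its ubiquinone module, UQCR11 of complex III, COX8A of complex IV and ATP5MC1 of complex V. No peak of any list was found at 8 members (8.99%, against 26.4%): UQCRHL, COX4I2, COX6A2, COX6B2, COX7A1, COX7B2, COX8C and ATP5MGL. The histogram of lists per gene shows the members gathered at 5 to 8 lists and a small group at 0.

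**Figure D2:**
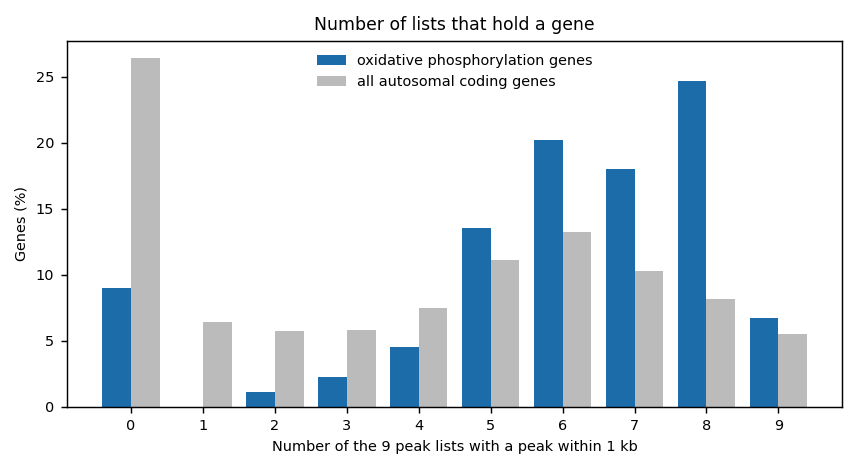
Percentage of genes (y axis) found in 0 to 9 of the peak lists (x axis), for the oxidative phosphorylation genes (blue) and all autosomal coding genes (grey). Blue bars peak at 8 lists (24.7% of members, against 8.16% of all coding genes), while 26.4% of all coding genes and 8.99% of members are in none.

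The promoters of these genes hold short sequences known as binding sites of YY1, NRF1 and ETS factors. RefSeq promoters, 250 bases before to 50 bases after a start in a table on GRCh38.p14, were found letter for letter near the same gene on GRCh37, the sequence of hg19, for 68 of the 89 members and for 14141 coding genes. The YY1 motif AANATGGC (GCCATNTT on the other strand) was in 22 of the 68 (32.4%) and in 8.42% of the 14141. The NRF1 motif GCGCATGCG (CGCATGCGC) was in 10 (14.7%, against 2.88%; 6, or 8.82% against 1.94%, from 100 bases before the start), and the ETS motif CCGGAAG, which on the opposite strand reads as CTTCCGG, in 20 (29.4%, against 15.1%). None of the 3 motifs was in 28 of the 68, and 11 had 2 or more kinds (16.2%, against 2.61%). Both strands were searched, and a match describes letters and not a site in use.

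At all 22 promoters with the YY1 motif a YY1 peak covered it, in HepG2 and in Huh7. The middle of the motif lay inside an INO80 peak at 21 of them in HepG2 and 18 in Huh7. At NDUFB8 the INO80 peak of HepG2 covered only a part of the motif. Most of these motifs lie close to the start. At occupied members, with or without the motif, YY1 peaks covered the canonical start at 79 of 80 in HepG2 and 62 of 75 in Huh7. INO80 peaks covered it at 63 of 80 in HepG2 and 45 of 70 in Huh7. Covered motifs were not counted over all coding promoters, and whether coverage depends on the motif was not tested. On the strand of the gene, the letters ATG of the motif can be the codon where translation starts. This was the annotated start codon in 13 of 15 same-strand matches of members (86.7%, against 45% of 851 same-strand matches of all coding genes). The windows below show 8 of those 13, with the motif in capitals, written 5′ to 3′ on the strand of the gene.
NDUFS3: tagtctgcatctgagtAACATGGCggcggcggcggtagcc
NDUFS4: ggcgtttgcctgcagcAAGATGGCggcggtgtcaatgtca
NDUFS6: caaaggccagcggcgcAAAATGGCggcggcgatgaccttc
NDUFS7: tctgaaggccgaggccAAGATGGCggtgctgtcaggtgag
NDUFA7: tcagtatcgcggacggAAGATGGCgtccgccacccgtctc
SDHB: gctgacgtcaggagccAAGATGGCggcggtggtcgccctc
UQCRC1: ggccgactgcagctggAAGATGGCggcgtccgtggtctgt
COX6A1: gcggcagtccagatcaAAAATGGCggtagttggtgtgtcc

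The other 7 matches ran against the gene, so the letters read GCCATNTT on its strand. The 4 windows below show this arrangement, again with the motif in capitals, and in COX8A, ATP5F1A and COX7A2 it lies within 12 bases of the start of transcription.
NDUFS1: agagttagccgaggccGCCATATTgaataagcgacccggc
COX7A2: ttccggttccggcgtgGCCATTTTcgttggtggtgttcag
COX8A: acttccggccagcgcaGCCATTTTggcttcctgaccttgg
ATP5F1A: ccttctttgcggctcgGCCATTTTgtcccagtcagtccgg
COX7A2, a subunit of complex IV, was the exception for INO80: its INO80 peaks lay downstream and left the motif outside in both lines. In 17 of the 22 promoters the motif lay after the start of transcription (77.3%, against 52.5% of 1285 matches of all coding genes).

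**Figure D3:**
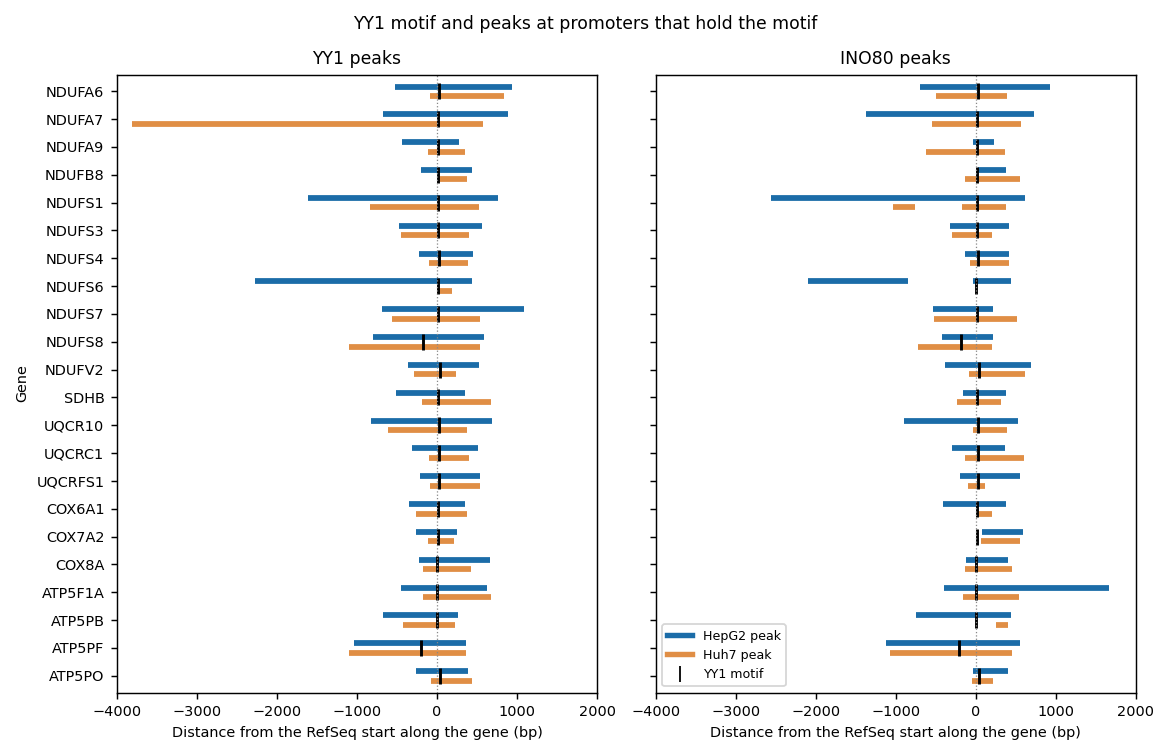
YY1 peaks (left) and INO80 peaks (right) at the 22 promoters with the YY1 motif, by distance from the RefSeq start along the gene (x axis, bp), with HepG2 above Huh7 for each gene and the motif as a black tick. Each YY1 peak row covers its tick, and INO80 misses it at COX7A2 in HepG2 and Huh7 and at NDUFS6, COX6A1 and ATP5PB in Huh7. At NDUFB8 in HepG2 the INO80 peak begins at 21 bp, just past the tick at 17 bp, and covers a part of the motif.

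Members with the YY1 motif had INO80 in Huh7 at 21 of 22 promoters (95.5%), against 34 of the 46 without it (73.9%), and over all coding genes the shares were 79.8% with the motif and 49.8% without. YY1 in Huh7 was at 22 of 22 with it and 37 of 46 without (80.4%), where all coding genes gave 86% with and 53.3% without. In HepG2 INO80 was at 22 of 22 with the motif and 41 of 46 without (89.1%), where all coding genes gave 87.3% with and 66.8% without. RUVBL1 in HepG2 was at 12 of 22 with the motif (54.5%) and 14 of 46 without (30.4%), and all coding genes likewise gave 43.8% with and 16.8% without. RUVBL2 in Huh7 was at 3 of 22 with it (13.6%) and 12 of 46 without (26.1%), while over all coding genes it ran the other way, at 23.4% with the motif and 13.2% without. RUVBL2 in HepG2 was at 11 of 22 with the motif and 29 of 46 without, and over all coding genes it also ran the other way, at 64.3% with and 41.5% without. All 22 member promoters with the motif were of general subunit genes. The 46 without it include the 4 tissue isoforms with a matched promoter, which were in no list. None of these differences was tested. The 68 promoters of members had a median observed over expected CpG ratio of 0.850 (range 0.247 to 1.2), against 0.792 in the 14141. It was 0.856 in 63 general subunit genes and 0.452 in 4 tissue isoforms. The median GC content was lower in the 68, at 61.2% against 64.0%.

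Complex I, the NADH dehydrogenase, had INO80, MCRS1 and YY1 at 36 of its 36 genes in HepG2. RUVBL2 was at 25 and RUVBL1 at 15. In Huh7 YY1 was at 34, INO80 at 31, MCRS1 at 21 and RUVBL2 at 10. The 10 genes of the electron input module, which binds FMN and takes electrons from NADH, had INO80 in all 10 in HepG2 and 9 in Huh7. NDUFS6, a zinc-binding subunit of this module, was the exception: it had INO80, MCRS1 and YY1 in HepG2 and YY1 alone in Huh7, with the nearest Huh7 INO80 peak 167003 bp away. NDUFV1, which carries FMN, was in 7 lists and NDUFS1, the large iron-sulphur subunit, in 8.

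In the ubiquinone module, where electrons leave the complex, NDUFS3, NDUFS7, NDUFS8, NDUFA5 and NDUFA9 had INO80 and YY1 in both lines. NDUFS7, an iron-sulphur subunit next to the ubiquinone site, was in all 9 lists. Its promoter, shown because it holds both a YY1 and an NRF1 motif (in capitals), is chr19:1383656-1383955 on the plus strand of hg19.
NDUFS7: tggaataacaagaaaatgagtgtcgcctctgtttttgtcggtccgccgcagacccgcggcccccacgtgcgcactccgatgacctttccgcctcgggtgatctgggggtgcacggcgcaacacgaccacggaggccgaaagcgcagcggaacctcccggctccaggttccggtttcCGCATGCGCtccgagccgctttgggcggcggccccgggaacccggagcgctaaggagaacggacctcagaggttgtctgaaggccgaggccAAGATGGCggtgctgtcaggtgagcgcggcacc
NDUFA5 and NDUFA9 had neither RUVBL1 nor RUVBL2 in any list. MCRS1 in Huh7 was at NDUFS3, NDUFS7 and NDUFS8 and not at NDUFA5 or NDUFA9.

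The 19 genes of the membrane arm, most of them accessory subunits around the proton channels, all had INO80, MCRS1 and YY1 in HepG2. In Huh7 INO80 was at 15, and the 4 without it were NDUFA11, NDUFAB1, NDUFB4 and NDUFB6. NDUFAB1 encodes the mitochondrial acyl carrier protein, and of the Huh7 factors only YY1 was at its start, in a peak of 540 bp. NDUFB4 had no peak in any Huh7 list. NDUFA11 had MCRS1, RUVBL2 and YY1 in Huh7 with no INO80 peak within 74045 bp, and NDUFB6 had MCRS1 and YY1 without INO80. NDUFB3 was the other complex I gene without YY1 in Huh7, while INO80 and MCRS1 were both present there.

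INO80 peaks at complex I genes were between 243 and 6503 bp wide in HepG2 (median 968 bp) and between 156 and 1182 bp in Huh7 (median 706 bp), taking the widest peak at each gene. The widest in HepG2 was at NDUFB10, a membrane arm subunit (chr16:2008885-2015387), followed by NDUFS1 (3175 bp, chr2:207023555-207026729) and NDUFB3 (2495 bp, chr2:201935039-201937533). The NDUFB10 peak was centred 2597 bp downstream of the start, so most of it lay away from the promoter. The NDUFS1 peak was centred 974 bp upstream, on the side of EEF1B2, which runs the other way. At NDUFB10 the MCRS1 peak of HepG2 was 6514 bp wide and the YY1 peak of Huh7 6010 bp, while the YY1 peak of HepG2 was 621 bp and the INO80 peak of Huh7 260 bp. In Huh7 the widest INO80 peaks were at NDUFB2 (1182 bp, chr7:140396302-140397483), NDUFA7 (1105 bp, chr19:8385699-8386803) and NDUFB1 (1078 bp, chr14:92587862-92588939).

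Complex II, succinate dehydrogenase, belongs to the citric acid cycle as well as to the respiratory chain. Its 4 genes all had INO80, MCRS1 and YY1 in HepG2. SDHB, the iron-sulphur subunit, had INO80 peaks of 537 bp in HepG2 (chr1:17380150-17380686) and 551 bp in Huh7 (chr1:17380214-17380764), and was in 7 lists. SDHC, a membrane anchor, was in 8 lists, with INO80 peaks of 974 bp in HepG2 (chr1:161283607-161284580) and 647 bp in Huh7 (chr1:161283932-161284578). SDHD, the other anchor, was in 5 lists and had a narrow INO80 peak of 209 bp in Huh7 (chr11:111957276-111957484).

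SDHA, the flavoprotein that oxidises succinate, had peaks of INO80 (1279 bp, chr5:218033-219311), MCRS1 (1231 bp), RUVBL2 (147 bp) and YY1 (1055 bp) in HepG2 and none in Huh7. The nearest Huh7 peaks lay 207978 bp away for INO80, 1115200 bp for MCRS1, 1491534 bp for YY1 and 33789571 bp for RUVBL2. The gap was not limited to SDHA. In the first 2 Mb of chromosome 5, INO80 had 46 peaks in HepG2 and 3 in Huh7, and YY1 had 59 in HepG2 and 3 in Huh7. MCRS1 had 42 there in HepG2 and 1 in Huh7, and RUVBL2 29 in HepG2 and 0 in Huh7. The whole chromosome had 966 INO80 peaks in HepG2 and 733 in Huh7. NDUFS6 lies in the same stretch. SDHA has pseudogene copies elsewhere in the genome, so reads in the gene may not all be placed with certainty. The copy number of the stretch in Huh7 was not measured, and its part in the difference was not tested.

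Complex III passes electrons from ubiquinol to cytochrome c. INO80 and YY1 were at 9 of its 10 genes in both lines, and the gene without them was UQCRHL, a near-identical copy of UQCRH with no peak in any list. MCRS1 was at 9 in HepG2 and 3 in Huh7, RUVBL2 at 5 in HepG2 and 2 in Huh7, and RUVBL1 at 4 in HepG2. UQCRC1 and UQCRC2, the core proteins, and UQCRFS1, the Rieske iron-sulphur protein, had INO80 and YY1 and no MCRS1 in Huh7. UQCR11, a small subunit, was in all 9 lists. Since reads from UQCRH and UQCRHL can be alike within the copied part, the absence at UQCRHL is uncertain there.

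CYC1, the gene of cytochrome c1, was in 6 lists: INO80, MCRS1, RUVBL2 and YY1 in HepG2, and INO80 and YY1 in Huh7. Its INO80 peaks were among the widest of the members, at 2398 bp in HepG2 (chr8:145149106-145151503) and 1353 bp in Huh7 (chr8:145149485-145150837). UQCRH, a hinge protein, had the widest of complex III in HepG2 (4928 bp, chr1:46767074-46772001), and UQCRC2 followed with 1555 bp (chr16:21964021-21965575). In Huh7 UQCR11 (1048 bp, chr19:1605740-1606787) and UQCRC1 (741 bp, chr3:48646471-48647211) came after CYC1. At UQCRH the INO80 peak of Huh7 was 348 bp wide. The median over complex III was 1427 bp in HepG2 and 432 bp in Huh7.

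CYCS encodes cytochrome c, the soluble carrier between complexes III and IV that also starts caspase activation when it leaves the mitochondrion. It was in 8 of the 9 lists, and the list without it was RUVBL2 in HepG2, whose nearest peak lay 145150 bp away. RUVBL2 did have a peak there in Huh7, of 306 bp. The INO80 peaks measured 347 bp in HepG2 (chr7:25164497-25164843) and 670 bp in Huh7 (chr7:25164211-25164880), so CYCS was a member with the wider peak in Huh7.

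**Figure D4:**
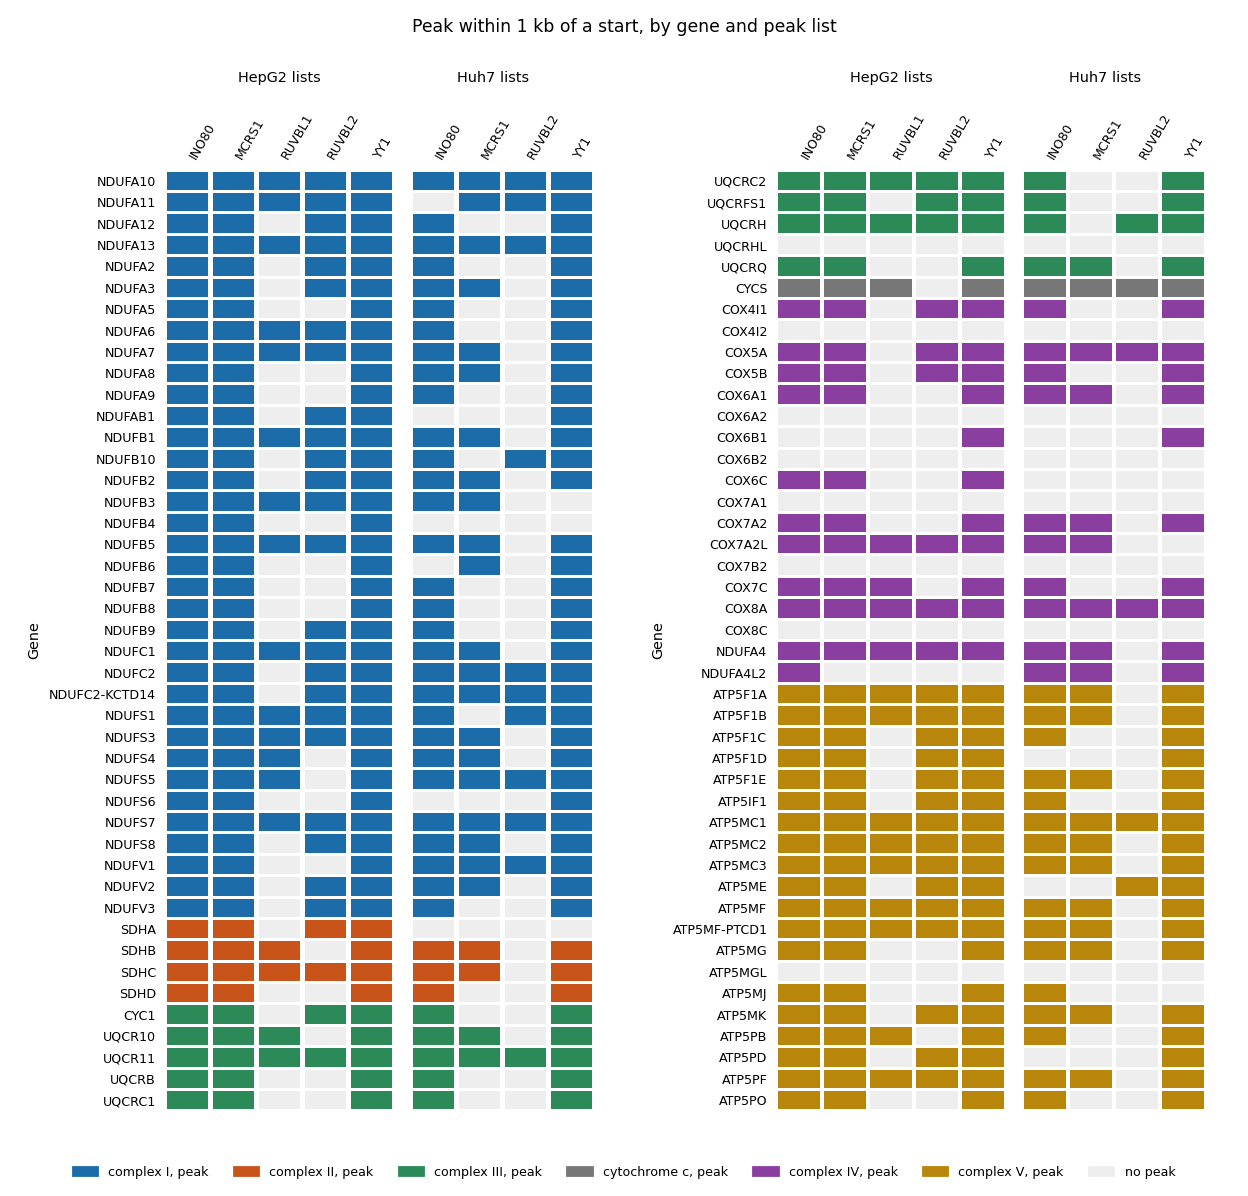
Occupancy of 88 oxidative phosphorylation genes (rows, sorted by complex) in the 5 HepG2 and 4 Huh7 peak lists (columns), where a coloured cell is a peak within 1 kb of a start and a grey cell is none. The empty rows are UQCRHL, ATP5MGL and 6 of the 7 tissue isoforms of complex IV, and the columns with most grey are RUVBL2 in Huh7 and RUVBL1 in HepG2.

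Complex IV, cytochrome c oxidase, had the lowest share of genes with INO80, and with YY1, among the complexes in both lines. Of its 18 genes, INO80 was at 11 in HepG2 and 10 in Huh7, and YY1 likewise at 11 in HepG2 and 10 in Huh7. MCRS1 was at 10 in HepG2 and 7 in Huh7, RUVBL2 at 6 in HepG2 and 2 in Huh7, and RUVBL1 at 4 in HepG2. Among the 11 general genes INO80 was at 10 in HepG2 and 9 in Huh7. Of the 7 isoforms made in particular tissues or under stress, 6 had no peak of any factor: COX4I2 (lung), COX6A2 and COX7A1 (heart and skeletal muscle), COX6B2 and COX8C (testis) and COX7B2. For COX4I2, COX6A2, COX6B2, COX7A1 and COX8C the partner made in most tissues (COX4I1, COX6A1, COX6B1, COX7A2 and COX8A) had a YY1 peak in both lines.

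NDUFA4L2, a hypoxia-induced relative of NDUFA4, was the tissue or stress isoform with peaks. In HepG2 it had an INO80 peak of 608 bp at an upstream start, 1390 bp from the canonical start, and no other factor. In Huh7 it had INO80 (945 bp from the canonical start), YY1 (11 bp) and MCRS1 (3402 bp, at an upstream start). NDUFA4 itself, once counted in complex I and now known as a subunit of complex IV, was in 8 lists.

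COX6B1, a subunit that faces cytochrome c, had YY1 without any INO80 complex subunit. Its YY1 peaks covered the start in HepG2 (482 bp, chr19:36138969-36139450) and in Huh7 (291 bp, chr19:36139128-36139418). The nearest INO80 peaks lay 3311 bp away in HepG2 and 3440 bp in Huh7. No other general subunit gene lacked INO80 in HepG2. COX6C had INO80, MCRS1 and YY1 in HepG2 and no peak in Huh7, and COX7A2L, a supercomplex factor, was in 7 lists and had no YY1 in Huh7. The 3 promoters below, from hg19 and written along the gene with any of the 3 motifs in capitals, set a subunit gene in all 9 lists (COX8A, chr11:63741842-63742141, plus strand) beside the gene with YY1 alone (COX6B1, chr19:36138975-36139274, plus strand) and a muscle isoform in no list (COX6A2, chr16:31439632-31439931, minus strand).
COX8A: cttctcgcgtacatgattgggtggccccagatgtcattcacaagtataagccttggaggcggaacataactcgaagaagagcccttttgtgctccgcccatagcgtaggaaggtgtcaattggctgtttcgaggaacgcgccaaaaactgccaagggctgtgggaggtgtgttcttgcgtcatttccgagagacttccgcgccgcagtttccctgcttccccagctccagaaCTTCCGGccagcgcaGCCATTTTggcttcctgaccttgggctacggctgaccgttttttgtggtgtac
COX6B1: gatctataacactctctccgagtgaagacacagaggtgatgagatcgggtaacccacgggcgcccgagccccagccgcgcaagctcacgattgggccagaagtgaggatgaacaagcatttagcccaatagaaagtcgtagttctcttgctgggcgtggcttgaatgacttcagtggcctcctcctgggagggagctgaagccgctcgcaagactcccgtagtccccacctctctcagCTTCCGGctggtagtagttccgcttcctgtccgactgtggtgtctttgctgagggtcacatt
COX6A2: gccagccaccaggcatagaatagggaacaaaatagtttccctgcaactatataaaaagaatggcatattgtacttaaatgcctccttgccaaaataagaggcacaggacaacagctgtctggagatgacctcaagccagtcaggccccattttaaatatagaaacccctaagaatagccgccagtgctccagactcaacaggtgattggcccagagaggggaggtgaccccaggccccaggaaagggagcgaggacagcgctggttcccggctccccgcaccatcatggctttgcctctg
COX8A holds an ETS and a YY1 motif and COX6B1 an ETS motif, while COX6A2 holds none of the 3. The observed over expected CpG ratio was 0.793 in COX8A, 0.664 in COX6B1 and 0.247 in COX6A2, which was the lowest of the 68 members.

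INO80 peaks at complex IV genes had a median width of 789 bp in HepG2 and 438 bp in Huh7. The widest in HepG2 were at COX4I1 (1385 bp, chr16:85832658-85834042), NDUFA4 (1149 bp, chr7:10979333-10980481) and COX7C (1040 bp, chr5:85913692-85914731). In Huh7 they were at COX5A (1026 bp, chr15:75229948-75230973), NDUFA4 (1001 bp, chr7:10979286-10980286) and NDUFA4L2 (906 bp, chr12:57633767-57634672). The peak at NDUFA4L2 did not cover the canonical start.

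Complex V, the ATP synthase, had INO80, MCRS1 and YY1 at 19 of its 20 genes in HepG2, RUVBL2 at 15 and RUVBL1 at 9. The gene with no peak was ATP5MGL, a near-identical copy of ATP5MG, for which the placing of reads is uncertain. In Huh7 YY1 was at 18, INO80 at 16, MCRS1 at 11 and RUVBL2 at 2. The 3 genes of the c ring, the rotor that protons turn, were alike: ATP5MC1, ATP5MC2 and ATP5MC3 were in all 5 HepG2 lists and had INO80, MCRS1 and YY1 in Huh7. ATP5MC1 also had RUVBL2 in Huh7.

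Of the 5 genes of the catalytic head, ATP5F1A and ATP5F1B, which form the catalytic sites, were in 8 lists. ATP5F1D, of the central stalk, lacked INO80 in Huh7 by a small margin, since the nearest peak lay 1092 bp from a start. ATP5IF1, the inhibitor that stops the enzyme from running backwards, had INO80 and YY1 in both lines and MCRS1 and RUVBL2 in HepG2 alone. ATP5PF of the peripheral stalk was in 8 lists, and ATP5PD, another stalk gene, had YY1 alone in Huh7. ATP5ME, of the membrane part, had RUVBL2 and YY1 in Huh7 without INO80, with the nearest INO80 peak 27438 bp away. ATP5MJ, a small membrane subunit, had INO80 and no other factor in Huh7.

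The median INO80 peak at complex V genes was 1080 bp wide in HepG2 and 759 bp in Huh7. The widest in HepG2 were at ATP5F1A (2068 bp, chr18:43676592-43678659), ATP5ME (1903 bp, chr4:667171-669073) and ATP5F1E (1681 bp, chr20:57606466-57608146). In Huh7 they were at ATP5MC2 (2148 bp, chr12:54069383-54071530), ATP5IF1 (1962 bp, chr1:28561394-28563355) and ATP5PF (1526 bp, chr21:27106764-27108289). These 3 were the widest INO80 peaks of all members in Huh7.

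**Figure D5:**
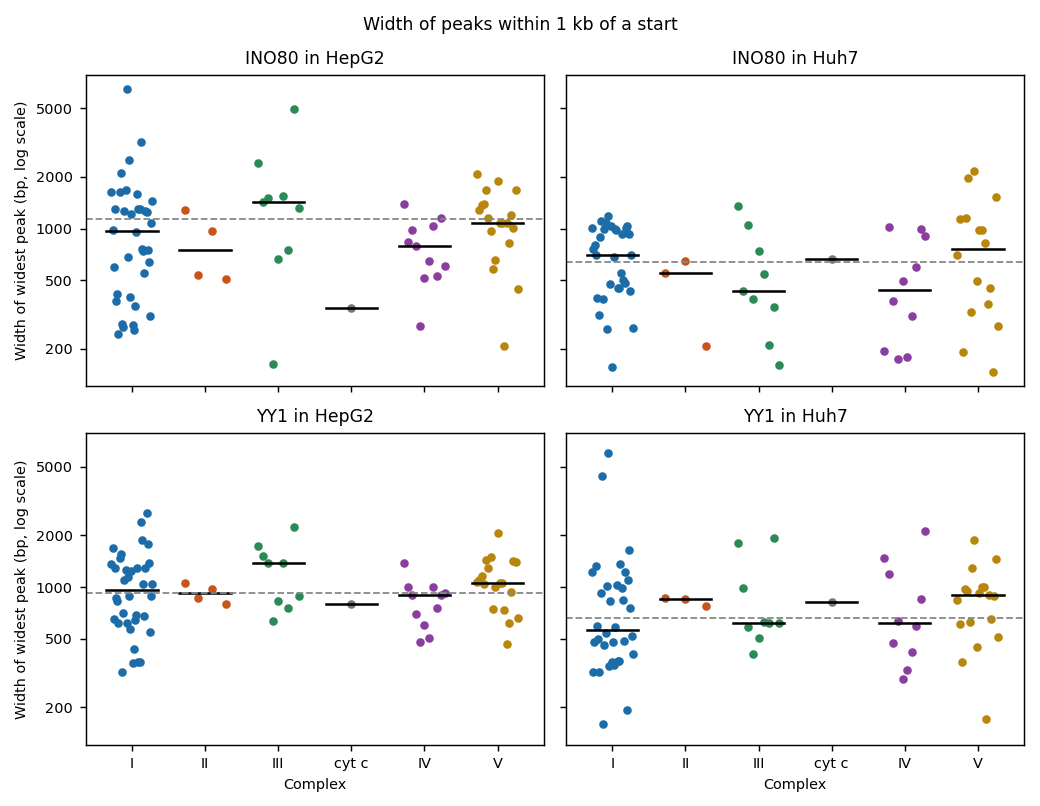
Width of the widest peak within 1 kb of a start at each occupied gene (points, y axis in bp on a log scale), by complex (x axis), for INO80 (top) and YY1 (bottom) in HepG2 (left) and Huh7 (right). Black lines are medians by complex and the dashed line is the median of all occupied coding genes; INO80 points in HepG2 reach 6503 bp at NDUFB10, and the dashed line there (1130 bp) lies above the median of the members (999 bp).

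Over all members the INO80 peak had a median width of 999 bp in HepG2, against 1130 bp at all occupied coding genes, and 621 bp in Huh7, against 640 bp. YY1 peaks had medians of 986 bp in HepG2 (against 922 bp) and 651 bp in Huh7 (against 663 bp). Where a member had INO80 in both lines, the HepG2 peak was the wider at 48 of 70 (68.6%, against 81.9% of 8895 coding genes), with a median HepG2 over Huh7 width of 1.46 (against 1.79). YY1 peaks covered the canonical start at 79 of 80 members in HepG2 (98.8%, against 84.9%) and at 62 of 75 in Huh7 (82.7%, against 64.6%). INO80 peaks covered it at 63 of 80 in HepG2 (78.8%, against 74.7%) and 45 of 70 in Huh7 (64.3%, against 50%). The centre of the INO80 peak lay a median of 128 bp downstream of the start in HepG2 (against 120 bp at all occupied coding genes). In Huh7 it lay 33 bp downstream (against 71.5 bp). That of YY1 lay 3 bp upstream in HepG2 (-3.0 bp, against 8.5 bp downstream) and 63 bp downstream in Huh7 (against 79.5 bp).

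Occupancy was carried over between the lines for INO80 and YY1 more than for the other factors, and the same was so over all coding genes. The Huh7 lists of INO80 (15303 peaks) and YY1 (21554) are also longer than those of MCRS1 (6020) and RUVBL2 (3322). INO80 was in both lines at 70 members (78.7%, against 47.1% of all coding genes), in HepG2 alone at 10 and in Huh7 alone at 0. YY1 was in both at 74 (83.1%, against 50.1%), in HepG2 alone at 6 and in Huh7 alone at 1, NDUFA4L2. MCRS1 was in both at 44 (49.4%, against 22.1%), in HepG2 alone at 35 and in Huh7 alone at 1, again NDUFA4L2. RUVBL2 was in both at 14 (15.7%, interval 9.61 to 24.7, against 11.8%), in HepG2 alone at 39 and in Huh7 alone at 3. Of the members held in HepG2, 87.5% were also held in Huh7 for INO80 (against 71.6% of coding genes), 92.5% for YY1 (78.5%), 55.7% for MCRS1 (36.7%) and 26.4% for RUVBL2 (28.8%). The 10 members with INO80 in HepG2 alone were NDUFA11, NDUFAB1, NDUFB4, NDUFB6, NDUFS6, SDHA, COX6C, ATP5F1D, ATP5ME and ATP5PD, and 7 of them had YY1 in Huh7.

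Many of the promoters are shared with a neighbour on the other strand. A coding gene that starts within 1 kb and runs the other way was found at 23 members (25.8%) and at 1846 of all coding genes (9.78%). Examples are ATP5PF with GABPA, which encodes an ETS factor of mitochondrial genes, NDUFB5 with MRPL47 and SDHD with TIMM8B. INO80 in HepG2 was at 23 of the 23, against 57 of the 66 members with no such neighbour, and over all coding genes at 93.4% with one and 62.7% without. The members without INO80 were 6 tissue isoforms, the 2 near-identical copies and, of the general subunit genes, COX6B1 alone. At promoters with such a neighbour a peak cannot be assigned to 1 of the 2 genes. This holds for the peak widths given above for NDUFS1, NDUFB3, NDUFA7, NDUFB1, SDHA, SDHD, UQCRH, COX4I1, ATP5ME and ATP5PF. The promoter of ATP5PF (chr21:27107166-27107465, minus strand) is shown because it is shared with GABPA and holds 1 YY1 and 2 ETS motifs, in capitals.
ATP5PF: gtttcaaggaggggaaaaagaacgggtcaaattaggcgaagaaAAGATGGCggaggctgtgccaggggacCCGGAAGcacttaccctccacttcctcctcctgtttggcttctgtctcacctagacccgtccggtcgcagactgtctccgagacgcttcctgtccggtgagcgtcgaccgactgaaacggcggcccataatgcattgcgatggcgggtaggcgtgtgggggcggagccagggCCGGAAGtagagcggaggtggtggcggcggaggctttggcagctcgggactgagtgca
Both YY1 and INO80 peaks covered its YY1 motif in HepG2 and in Huh7.

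Other genes of the pathway were counted in the same way. Of 49 assembly factors, which build the complexes without being part of them, INO80 was at 48 in HepG2 (98.0%, against 65.7% of all coding genes). In Huh7 it was at 44 (89.8%, against 49.5%). YY1 was at 49 in HepG2 (against 63.8%) and 43 in Huh7 (87.8%, against 53.1%). MCRS1 was at 49 of them in HepG2 (against 60.1%) and 25 in Huh7 (51.0%, against 22.7%). RUVBL2 was at 37 in HepG2 (75.5%, against 40.9%) and 12 in Huh7 (24.5%, against 13.2%). RUVBL1 was at 17 in HepG2 (34.7%, against 17.5%). COX16 was the assembly factor without INO80 in either line. All 9 lists held 5.52% of all coding genes and 6 of the 49 assembly factors: COX20, NDUFAF1, NDUFAF5, SDHAF2, TACO1 and UQCC1. Of 16 nuclear regulators and factors of mitochondrial DNA expression, INO80 and YY1 were each at 16 in HepG2 (against 65.7% and 63.8% of all coding genes). Both were at 14 in Huh7 (87.5%, against 49.5% for INO80 and 53.1% for YY1). MCRS1 was at 15 in HepG2 (93.8%, against 60.1%) and 10 in Huh7 (62.5%, against 22.7%).

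Among those regulators 4 of 16 were in all 9 lists (against 5.52% of all coding genes). They were GABPB1, a partner of GABPA, the polymerase subunits POLG and POLG2 and the coactivator PPRC1. NRF1 was in 8 and TFAM, which packs mitochondrial DNA, in 6. PPARGC1A, a coactivator induced by fasting in the liver, had INO80 and YY1 in HepG2 and no peak in Huh7, and the gene of the helicase TWNK had no INO80 in Huh7. The YY1 gene itself had INO80 and YY1 in both lines. INO80 was at 77 of the 78 general subunit genes in HepG2 and 67 in Huh7, against 76 in HepG2 and 68 in Huh7 of 78 genes of mitochondrial ribosomal proteins. All 9 lists held 6 of the general subunit genes, against 15 of the ribosomal protein genes, and that difference was not tested. Over all coding genes INO80 was at 65.7% in HepG2 and 49.5% in Huh7, and 5.52% were in all 9 lists.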

How the data were processed

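For each factor in each line the authors deposited 1 table of peak positions on hg19, without heights. Bowtie2, SAMtools, MACS2, bedtools and deepTools are named without versions in the submitters' processing notes, with the builds hg19 and dm3. Pooling of libraries before peak calling is not stated in the labels. A fly spike-in table was not used.

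The members and lists of genes were chosen with earlier results of these data known. Gene starts were those of GENCODE 44 in its GRCh37 version. A gene was occupied when a peak had a base within 1 kb of a basic protein-coding start, over chromosomes 1 to 22. The canonical start was taken as the outermost basic start for 249 genes without that tag. With 1 list per factor and line no significance test was run, and no read depth is known. Text names every member without INO80 in either line, without any peak or in all 9 lists, complex II, CYCS, CYC1, all isoforms, copies and read-through genes, and the 3 widest INO80 peaks per complex and line. Other members were named after their values were seen. Values of 1 member are not reported here on their own, though the counts include it. The script that finds peaks near starts was checked on simulated peaks planted near starts. Python 3.11.15, pandas 2.3.3, NumPy 2.4.6, statsmodels 0.14.6 and matplotlib 3.10.9 were used. Alternatives were other distances, starts, peak centres, wider peaks, chromosomes left out, motif letters and window, and the complex of NDUFA4. The values for the end of chromosome 5, for members in 8 lists and for widths where a factor is in both lines were added after the data were seen.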

Additional observations from a re-analysis of the deposited data

How the results depend on the processing

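Of 768 alternative values, 649 stayed within 1.5 times the main count and 119 did not. Canonical starts, all annotated starts and peak centres within 1 kb moved no count past that factor, and limits of 500 bp and 5 kb moved only RUVBL2 in Huh7 at complex V (1 and 4 genes) and, at 5 kb, at complex IV (4 genes).

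Over the wider 50% of each list, members occupied were 19 for RUVBL1 in HepG2 (21.3%, against 10.0% of all coding genes). They were 27 for MCRS1 in Huh7 (30.3%, against 12.9%) and 8 for RUVBL2 in Huh7 (8.99%, against 7.09%). INO80 in HepG2 was at 23 genes of complex I, 2 of complex II and 6 of complex IV (and at 49.5% of all coding genes). INO80 in Huh7 was at 4 of complex III and 5 of complex IV (and at 31.6% of all coding genes). Both lines then shared 33 members for INO80, 26 for MCRS1 and 5 for RUVBL2. INO80 with YY1 in Huh7 was at 40, and 12 were in all 5 HepG2 lists, 6 in all 4 Huh7 lists and 2 in all 9.

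Over the 3322 widest peaks of each list, members occupied in HepG2 were 8 for INO80, 15 for MCRS1, 19 for RUVBL2 and 22 for YY1, and in Huh7 21 for INO80, 29 for MCRS1 and 22 for YY1. INO80 in HepG2 was at 4 genes of complex I, 0 of II, 2 of III, 0 of IV and 2 of V. INO80 in Huh7 was at 10 of complex I, 0 of II, 2 of III, 2 of IV and 7 of V. Both lines shared 2 members for INO80, 3 for MCRS1, 9 for RUVBL2 and 14 for YY1. INO80 with YY1 was at 5 in HepG2 and 12 in Huh7. All 5 HepG2 lists held 1 member, all 4 Huh7 lists 3, all 9 lists 0, and 34 were in no list. These limits use fewer peaks by construction. For genes in both lines or in several lists, the share of all coding genes was not counted under either width limit, so those counts have no background.

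With chromosomes 2, 14, 16, 17 and 20 left out, since HepG2 has gained copies of them, 5 members were in no list. The shorter YY1 letters ATGGC were in 37 of 68 member promoters (54.4%), against 37.3% of all coding promoters. From 100 bases before the start, the NRF1 letters were in 6 (8.82%, against 1.94%). Of 521 other values, for pathway lists and remaining counts, 75 moved, 73 down and 2 up. No paired analysis was possible because each factor has 1 peak list per line and no result comes from a test. Without heights, depth or replicates, a gene with no peak may be one whose peak was not detectable at this depth.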
